A study of Mus musculus with 6 samples.

Results

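Imprinted genes associated with the quiescence of haematopoietic stem cells were compared between bone marrow stem and progenitor cells of the mouse and a marrow population that arose after transplantation of embryonic stem cell (ESC) derivatives. The set holds 10 genes, H19, Igf2, Dlk1, Meg3, Peg3, Grb10, Ndn, Mest, Plagl1 and Gnas, taken by symbol from the 55401 gene IDs of the deposited count matrix through the GENCODE M21 annotation. All 10 were listed, each under a single ID, and 7 of them were among the 16211 genes with enough counts to be tested. Bulk RNA was sequenced from 6 libraries of 2000 sorted cells each, 3 per group, with total counts of 41580006 to 49269286 per library.

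The reference group was LSK, the Lin-, Sca-1+ and c-Kit+ compartment of the marrow of wild-type, untreated C57BL/6 mice aged 6 to 8 weeks, which contains stem cells among many more progenitors. The ESC-derived group was Lin-, Sca-1+ and c-Kit-. It was sorted from the marrow of primary recipients that had received CD144+ cells differentiated from ESCs, CD144 being the endothelial cadherin Cdh5. The labels call this group wild type too and give ESC differentiation as its treatment. No source used here gives the strain and age of the recipients, a marker that separates donor from host cells, or whether replicates came from separate animals. The p-values therefore measure the spread between these libraries, which may be technical. The groups differ at once in c-Kit gate, origin and transplantation, and these cannot be told apart.

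An imprinted gene is transcribed mainly from the copy inherited from one parent, because DNA methylation set in the egg or the sperm marks its control region. Many imprinted genes set growth through insulin-like growth factor (IGF) signalling, with paternally expressed genes such as Igf2 promoting growth and maternally expressed genes such as H19 and Grb10 restraining it. In mouse marrow, several of them were reported to be high in long-term stem cells and to fall in dividing progenitors, and loss of maternal H19 control was reported to bring stem cells out of quiescence. The counts do not resolve the parental copies, so every value is a total over both.

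The libraries differed in more than stem cell content. Kit, the gene of the c-Kit gate, had 2081 to 2550 counts per LSK library, against 2, 4 and 6 for ESC-derived ones. All 17 T cell markers were higher in the ESC-derived cells, beside 14.8% of all tested genes. Their summed level was 15000 to 15800 CPM (counts relative to the TMM-scaled library total) against 270 to 304 in LSK. None of the 17 was at 0 in either group. The T cell co-receptor gene Cd8a was at 1180 ± 85.4 CPM (SD, n = 3) against 2.52 ± 0.504 in LSK. Of 24 tested stem cell markers 14 were lower (58.3%, beside 15.2% of all tested genes) and 2 higher (8.3%, beside 14.8%). Their list summed to 1090 to 1470 CPM against 3930 to 4490 in LSK. Most of the ESC-derived sum came from Ly6a, the gene of the Sca-1 gate, and Ifitm1. Without these genes, left out after their values were seen, the sums were 111 to 209 CPM against 1740 to 1860. In LSK, 11 plasma cell markers summed to 4560 to 5320 CPM, against 348 to 400, led by the immunoglobulin joining chain gene Jchain at 4290 ± 314 against 5.16 ± 3.4. Jchain thus made up most of the LSK sum. Of the 11 markers, 8 were lower in the ESC-derived cells (72.7%, beside 15.2% of all tested genes) and 2 did not pass. The 1 called higher (9.1%, beside 14.8%) was Prdm1, at 4.1 ± 1.88 CPM in LSK against 14.8 ± 3.84 (edgeR adjusted p = 0.027). Its call was lost in 4 alternatives. In bulk libraries, fewer cells of a type and less RNA per cell cannot be told apart, and the part of cell composition in the results below was not tested.

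Across the set, Dlk1, Ndn and Gnas were lower in the ESC-derived cells, no member was called higher, and 4 tested members did not pass. The test was the edgeR quasi-likelihood test with Benjamini-Hochberg adjustment over all 16211 genes, at a threshold of 0.05. The 3 members called stand against a background of 30.0% of all tested genes called in either direction, 15.2% of them lower and 14.8% higher. At an unadjusted p under 0.05, 4 members were lower and 0 higher. The share of all tested genes under that unadjusted threshold is not given here, so this count has no background to be read against. DESeq2 and limma-voom also called 0 members higher, while 46.3% and 45.1% of all their calls were higher. In 4 of the 7 tested members the libraries of the groups did not overlap, as in 49.8% of all tested genes. LSK replicate 2 lay between the other LSK libraries in 65.9% of 8345 well-expressed genes, against 16.6 to 37.0% for each other library in its own group. Without it, the set still had 3 lower and 0 higher, while the background of lower calls fell from 15.2% to 8.70%.

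**Figure D1:**
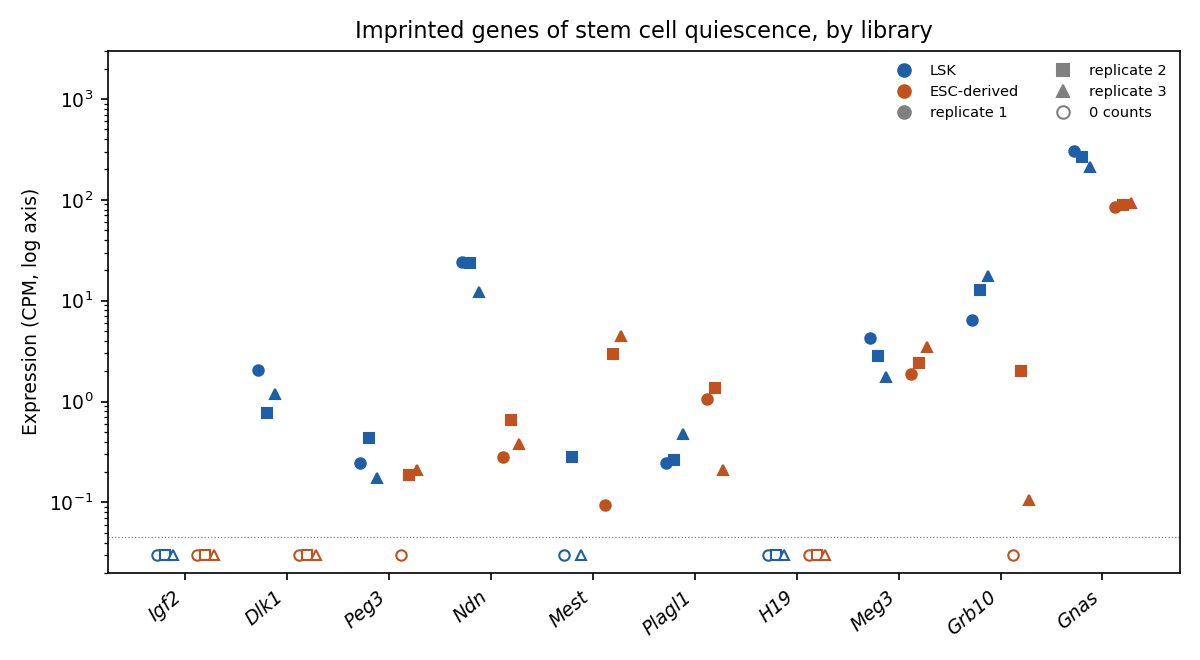
Expression of the 10 imprinted genes in each library, in CPM on a log axis, with LSK in blue, ESC-derived cells in orange and the replicate given by the marker shape. Open symbols below the dotted line are libraries with 0 counts, and Gnas stands above every other gene in all 6 libraries.

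The promoters of the 3 genes called lower are shown because these genes share a direction, and that of Mest because it holds the motif bound by ZFP57, the zinc finger protein that protects methylated imprints. Each sequence is the 250 bases before a RefSeq transcription start, from RefSeq on build GRCm38.p6, written 5′ to 3′ on the strand of the gene, here plus for all. Capitals mark TGCCGC or its reverse complement GCGGCA, which were searched as exact letters on both strands.

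Ndn chr7:62348027-62348276: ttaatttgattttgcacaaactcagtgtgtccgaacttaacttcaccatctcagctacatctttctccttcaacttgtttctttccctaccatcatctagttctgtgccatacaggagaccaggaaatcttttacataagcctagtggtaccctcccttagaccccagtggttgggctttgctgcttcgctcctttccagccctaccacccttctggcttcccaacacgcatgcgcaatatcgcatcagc
Dlk1 chr12:109452573-109452822: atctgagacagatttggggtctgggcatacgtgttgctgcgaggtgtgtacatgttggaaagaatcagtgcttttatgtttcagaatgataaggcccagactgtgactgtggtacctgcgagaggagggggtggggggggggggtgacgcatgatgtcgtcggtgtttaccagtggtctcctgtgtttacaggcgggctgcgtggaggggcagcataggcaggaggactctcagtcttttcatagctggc
Gnas chr2:174329756-174330005: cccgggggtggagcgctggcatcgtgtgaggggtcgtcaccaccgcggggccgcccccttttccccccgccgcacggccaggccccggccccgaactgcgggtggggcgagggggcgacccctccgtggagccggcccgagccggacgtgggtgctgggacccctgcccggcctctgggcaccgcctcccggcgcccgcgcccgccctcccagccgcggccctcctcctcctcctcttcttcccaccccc
Mest chr6:30737803-30738052: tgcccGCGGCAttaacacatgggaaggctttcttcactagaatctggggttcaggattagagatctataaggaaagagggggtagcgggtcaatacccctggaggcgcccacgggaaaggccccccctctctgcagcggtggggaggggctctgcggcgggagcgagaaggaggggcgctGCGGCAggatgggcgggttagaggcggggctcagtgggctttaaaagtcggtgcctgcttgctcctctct

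RefSeq gave 19 promoters for 9 of the 10 members, all but H19. The motif was present in 4 of them, belonging to Meg3, Mest and Plagl1, and in 8.68% of all 32851 mouse promoters of the same length. The pair of matching Mest promoters start 3 bases apart and hold the same 2 matches, so they are nearly 1 sequence. The promoters of the genes called lower held no match. They ranged widely in CpG dinucleotides, the target of DNA methylation, with 5 in Ndn, 8 in Dlk1 and 29 in the most downstream of 4 Gnas promoters, against a median of 6 over all promoters. The Mest promoter held 14. A match is a description of letters and does not show binding, and no match says only that these letters are not in the window.

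Igf2 and H19 were not detected in any library. Igf2 (ENSMUSG00000048583; chr7:142650766-142666816, minus strand, mm10) encodes the paternally expressed growth factor. H19 (ENSMUSG00000000031; chr7:142575529-142578143, minus strand) is a maternally expressed noncoding RNA that shares enhancers with Igf2. Both had 0 counts in all 6 libraries, which allows a level of up to 0.0856 CPM in LSK and 0.0911 CPM in the ESC-derived cells. These limits rest on a floor of 12 counts over the 3 libraries of a group, that is 3 fragments at 4 counts each, and cover counting error only. At this depth neither gene gave a comparison, and nothing can be said of a difference below these limits in either direction.

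H19 is the host of the microRNA miR-675, for which Igf1r was reported as a target in stem cells. Its mature forms are shown because they carry that function. Poly(A)-primed libraries do not measure mature microRNAs, and the annotated Mir675 locus had 0 counts. Capitals mark the seed, bases 2 to 8, and positions are in GRCm38.p6.

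miR-675-5p chr7:142577112-142577133, minus strand: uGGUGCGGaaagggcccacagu
miR-675-3p chr7:142577078-142577099, minus strand: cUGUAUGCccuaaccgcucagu

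Dlk1 (ENSMUSG00000040856; chr12:109452823-109463336, plus strand) encodes a paternally expressed transmembrane protein that resembles the Notch ligands. It had 99, 35 and 54 counts in LSK replicates 1, 2 and 3 and 0 in each ESC-derived library. Its LSK level was 2.04, 0.766 and 1.18 CPM, with a mean of 1.33 ± 0.651 (SD, n = 3). Every LSK library was thus above every ESC-derived one, at a low level. Against the floor, Dlk1 was at least 14.7-fold lower in the ESC-derived cells (edgeR adjusted p = 0.0107). With the replicate number as a block the adjusted p was 0.0847, and the call was lost. Dlk1 passed in 13 of the 14 alternatives that kept it. With counts divided by 4, or a filter of 50 counts in 3 libraries, it was not tested.

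Ndn (ENSMUSG00000033585; chr7:62346569-62350262, plus strand) encodes necdin, a paternally expressed growth suppressor of the MAGE family that restrains cell cycle entry in neurons and stem cells. It was at 24.2, 23.5 and 12.1 CPM in LSK, a mean of 19.9 ± 6.8 (SD, n = 3). In the ESC-derived libraries it was at 0.285, 0.661 and 0.38 CPM, a mean of 0.442 ± 0.195, from 12, 28 and 18 counts. The lowest LSK library was far above the highest ESC-derived one. The log2 fold change was -5.49 ± 0.54 (SE; edgeR adjusted p = 0.000653). It lay between -5.89 and -5.25 over 16 alternative settings and passed in all of them.

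Gnas (ENSMUSG00000027523; chr2:174284320-174346744, plus strand) encodes the stimulatory G protein alpha subunit, which couples receptors to adenylyl cyclase, and carries further imprinted transcripts from upstream promoters. In most tissues the alpha subunit itself is made from both parental copies. Gnas was at 303, 267 and 211 CPM in LSK and at 84.1, 87.8 and 93.9 CPM in the ESC-derived cells, means of 260 ± 46.0 and 88.6 ± 4.99 (SD, n = 3). The groups did not overlap, and the ESC-derived libraries lay close together. The log2 fold change was -1.56 ± 0.15 (SE; edgeR adjusted p = 0.000664), between -1.81 and -1.44 over the 16 alternatives, with a pass in each. Counts are per gene, so the alpha subunit and the transcripts from other Gnas promoters are summed.

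Gnas dominated the set. It made up 86.4 to 89.0% of the members' counts in LSK and 90.2 to 96.2% in the ESC-derived cells. The summed level of the 10 members, 340, 308 and 245 CPM in LSK against 87.4, 97.3 and 103, therefore mostly followed Gnas.

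Grb10 was lower in every ESC-derived library than in any LSK library but did not pass the test. Grb10 (ENSMUSG00000020176; chr11:11930508-12038683, minus strand) encodes an adaptor that binds the insulin and IGF1 receptors and dampens their signal. It is maternally expressed in most mouse tissues and paternally expressed in neurons. Its level was 6.39, 12.7 and 17.5 CPM in LSK, a mean of 12.2 ± 5.56 (SD, n = 3). In the ESC-derived cells it was at 0, 2.03 and 0.106 CPM, a mean of 0.712 ± 1.14. Replicate 2 held 86 of the 91 ESC-derived counts, or 94.5%. The log2 fold change was -4.10 ± 1.60 (SE; edgeR adjusted p = 0.103). Without ESC-derived replicate 2 it was -7.74 with an adjusted p of 0.0105 by edgeR. Grb10 passed with DESeq2 (adjusted p = 0.00838), limma-voom (0.025) and edgeR on counts divided by 4 (0.0413), and its adjusted p ran from 0.00838 to 0.225 over the alternatives.

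**Figure D2:**
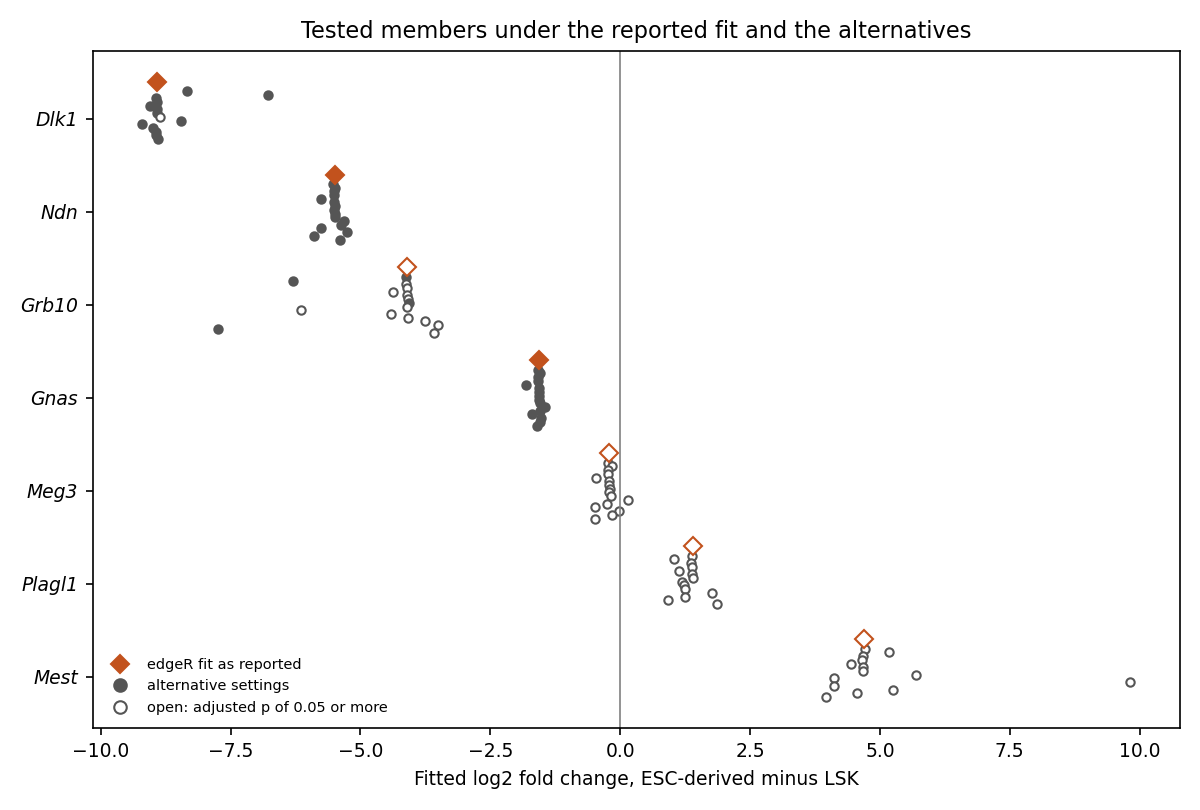
Fitted log2 fold change (ESC-derived minus LSK) of the 7 tested members, with the reported edgeR fit as orange diamonds and the alternative settings as grey points. Open symbols have an adjusted p of 0.05 or more. Ndn and Gnas are filled under every setting, Grb10 under 4 alternatives, and Meg3 under 1 lies above 0. The fitted values of Dlk1 rest on 0 counts in one group and are no bound.

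Meg3 (ENSMUSG00000021268; chr12:109541001-109571726, plus strand) is the maternally expressed noncoding RNA of the Dlk1 locus and the start of a long noncoding transcript region that carries many microRNAs. It was at 4.31, 2.82 and 1.76 CPM in LSK and at 1.86, 2.39 and 3.44 CPM in the ESC-derived cells, means of 2.97 ± 1.28 and 2.56 ± 0.808 (SD, n = 3). The groups overlapped almost fully. The log2 fold change was -0.21 ± 0.63 (SE; edgeR adjusted p = 0.84), and without LSK replicate 1 it turned to 0.16 (adjusted p = 0.914). Dlk1 and Meg3 are oppositely imprinted neighbours. Their difference in response was not tested.

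Mest, a paternally expressed gene for a hydrolase-like protein of the mesoderm (ENSMUSG00000051855; chr6:30723547-30748465, plus strand), had counts mainly in ESC-derived replicates 2 and 3. It had 0, 13 and 0 counts in LSK and 4, 124 and 212 in the ESC-derived cells. These are 0, 0.285 and 0 CPM against 0.0951, 2.93 and 4.48 CPM, means of 0.0948 ± 0.164 and 2.5 ± 2.22 (SD, n = 3). ESC-derived replicate 1 was below LSK replicate 2, so the groups overlapped. The log2 fold change was 4.69 ± 2.13 (SE; edgeR adjusted p = 0.151), and Mest passed under none of the 14 alternatives that kept it. All 13 LSK counts came from replicate 2. Without that library the fitted value was 9.82 against a group at 0, with an adjusted p of 0.0738.

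Plagl1 and Peg3, both zinc finger genes expressed from the paternal copy, were near the limit of detection. Plagl1 (ENSMUSG00000019817; chr10:13060504-13131694, plus strand), a growth suppressor and regulator of other imprinted genes, was at 0.247, 0.263 and 0.479 CPM in LSK. In the ESC-derived cells it was at 1.05, 1.37 and 0.211 CPM. Replicate 3 of the ESC-derived cells lay below all LSK libraries, and the log2 fold change of 1.40 ± 0.97 (SE) did not pass (edgeR adjusted p = 0.337). Peg3 (ENSMUSG00000002265; chr7:6703892-6730431, minus strand), which acts in growth and maternal behaviour, had 12, 20 and 8 counts in LSK and 0, 8 and 10 in the ESC-derived cells. It was not tested after the filter on low counts. Without the filter its log2 fold change was -1.10 ± 1.80 (SE; edgeR adjusted p = 0.702).

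Per kilobase of exon, the order of the members' mean levels in LSK was Gnas at 23.3 CPM per kb, Ndn at 5.4, Grb10 at 1.34, Dlk1 at 0.235, Meg3 at 0.164, Plagl1 at 0.0422, Mest at 0.0241 and Peg3 at 0.0215, with Igf2 and H19 at 0. The libraries of Gnas, Ndn and Grb10 did not overlap with those of the next gene in this order. Dlk1 overlapped with Meg3, and Plagl1, Mest and Peg3 overlapped in turn. In the ESC-derived cells Gnas was at 7.92 CPM per kb, followed by Mest at 0.634, Meg3 at 0.142, Ndn at 0.12, Plagl1 at 0.112, Grb10 at 0.0783 and Peg3 at 0.01. Only Gnas stood clear of the next gene there, and all later neighbours overlapped.

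The LSK libraries were not alike in these genes. Ndn and Gnas were highest in replicate 1 and lowest in replicate 3, and Grb10 the reverse. For each of these 3 genes the replicate 2 value lay between the other LSK values, as it did for most genes. For Dlk1 it was the lowest of the LSK values, at 0.766 CPM.

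Some member counts cannot be separated from those of overlapping genes, because the libraries do not record strand. Gnas shares 988 exonic bases with Nespas, its antisense RNA, which had 917 counts in all. Mest shares 912 exonic bases with Copg2 on the opposite strand, which had 1498 counts. Gnas also overlaps Gm20721 (6 counts), Plagl1 overlaps Gm27741 (15 counts), and Meg3 overlaps Mir1906-1, Gm27300 and Mir770 (6, 5 and 1 counts). The remaining overlapping genes of H19, Igf2, Ndn, Mest, Meg3 and Gnas had 0 counts.

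Beyond the set, 66 other imprinted genes were listed, of which 8 had no counts and 43 were tested. Of the tested genes 12 were lower in the ESC-derived cells, or 27.9% against a background of 15.2%. The 1 called higher was 2.3% against 14.8%. Some genes are imprinted only in certain tissues, and whether the listed genes are imprinted in these cells was not tested. Their median log2 fold change was -0.86, beside -0.07 over all tested genes. Without LSK replicate 2 there were 11 lower and 0 higher, beside 8.70% of all tested genes lower and 1559 of 16211 higher. Cd81, a tetraspanin gene of the Kcnq1 domain, fell from 316 ± 34.6 to 23.2 ± 4.08 CPM (SD, n = 3), a log2 fold change of -3.77 ± 0.18 (edgeR adjusted p = 3.4e-05). Gatm, which encodes the first enzyme of creatine synthesis, fell from 48.2 ± 5.05 to 1.92 ± 0.682 CPM (log2 fold change -4.65 ± 0.35, edgeR adjusted p = 0.000216). Slc22a3, an organic cation transporter gene beside Igf2r, was at 24 ± 2.11 CPM in LSK and had no counts in the ESC-derived cells, at least 263-fold lower (edgeR adjusted p = 0.000236).

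Nespas was the single gene called higher. It was at 0.0825, 0.635 and 1.11 CPM in LSK and at 11.1, 4.75 and 3.51 CPM in the ESC-derived cells. The groups did not overlap, and the log2 fold change was 3.40 ± 1.03 (edgeR adjusted p = 0.0475). The call was lost in 10 of 16 alternatives. Gnas, annotated on the other strand of the same locus, moved the opposite way. Because the libraries do not record strand, counts in the 988 exonic bases shared by Nespas and Gnas cannot be assigned to either.

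**Figure D3:**
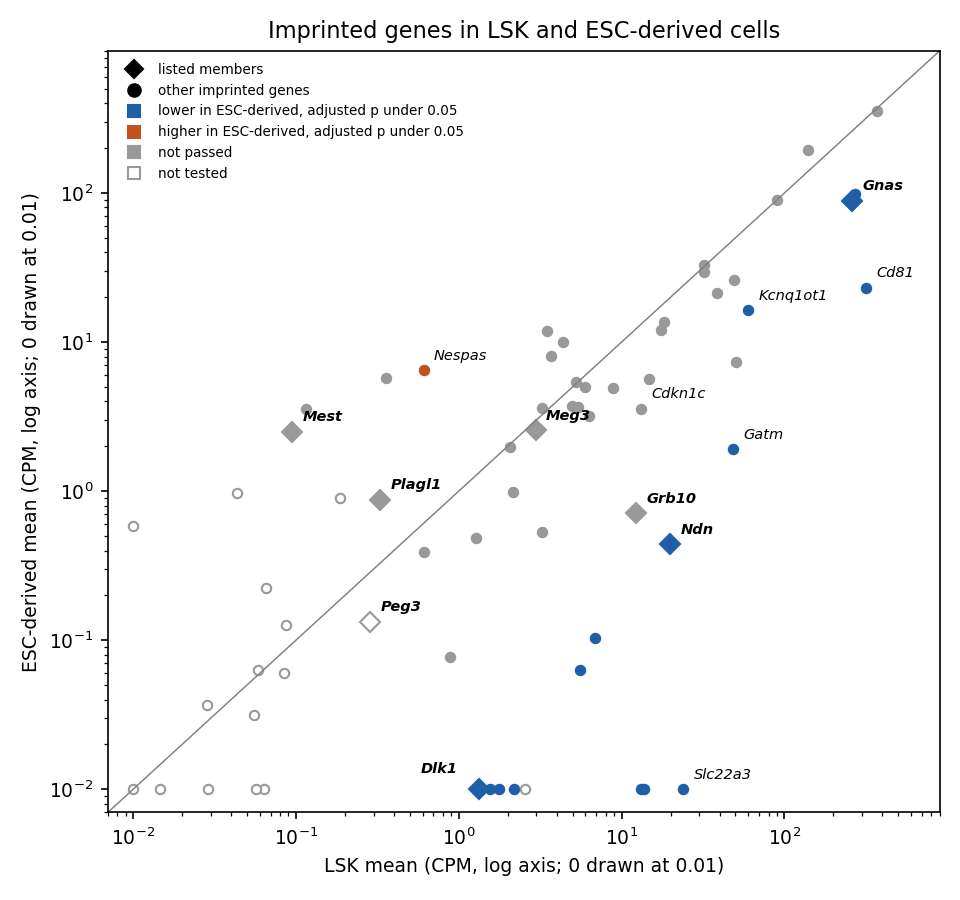
Mean CPM in LSK (x axis) and in the ESC-derived cells (y axis) for the members (diamonds) and the other imprinted genes (circles), on log axes with 0 drawn at 0.01 and a line of equal level. Blue genes were called lower in the ESC-derived cells, the orange gene, Nespas, higher, grey genes did not pass and open symbols were not tested. The row of blue points along the bottom has genes with LSK counts and none in the ESC-derived cells.

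The neighbours of the members are described by domain, and those named in this paragraph were chosen after their values were seen. In the Ndn-Snrpn domain, 8 listed genes gave 6 tested and 2 lower, beside 15.2% of all tested genes lower. One was Ndn, and the other was Mkrn3, which had 90, 86 and 42 counts in LSK and 0 in the ESC-derived cells (at least 17.1-fold lower, edgeR adjusted p = 0.00912). Magel2, a MAGE family relative of Ndn, was at 5.4, 2.23 and 0 CPM in LSK and had no counts in the ESC-derived cells, and it was not tested. Snrpn, the splicing protein gene at the imprinting centre of the domain, was at 5.22 ± 1.68 CPM against 5.4 ± 2.76 (SD, n = 3; edgeR adjusted p = 0.962). Ube3a, a ubiquitin ligase gene imprinted in neurons, was at 31.9 ± 10.4 against 32.8 ± 8.94 CPM (edgeR adjusted p = 0.942). Whether Ndn differed from Snrpn and Ube3a in its response was not tested.

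In the Dlk1-Meg3 domain, 2 of 4 tested genes were lower, Dlk1 and Begain, beside 15.2% of all tested genes. Begain had 57, 104 and 145 counts in LSK and 0 in the ESC-derived cells (at least 24.0-fold lower, edgeR adjusted p = 0.00801). Rian, a noncoding RNA downstream of Meg3, was at 0.879 ± 0.772 CPM against 0.0774 ± 0.134 and did not pass (edgeR adjusted p = 0.229). Ddc, the aromatic amino acid decarboxylase gene beside Grb10, was at 0, 0.328 and 0.74 CPM in LSK. In the ESC-derived cells Ddc was at 9.73, 1.96 and 5.58 CPM (log2 fold change 4.01 ± 1.48, edgeR adjusted p = 0.0879). Both Grb10 and Ddc thus had groups that did not overlap, in opposite order, and neither passed. These neighbours were chosen after their values were seen.

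The Kcnq1-Cdkn1c domain lies beside Igf2 and H19. Of 11 tested genes there, 5 were lower and 6 did not pass, beside 15.2% of all tested genes lower. Its genes named here, apart from Cd81, were chosen after their values were seen. Kcnq1ot1, the noncoding RNA that silences the domain on the paternal copy, fell from 59.8 ± 9.12 to 16.3 ± 9.21 CPM (SD, n = 3; log2 fold change -1.88 ± 0.42, edgeR adjusted p = 0.0154). Slc22a18, a transporter gene, had 1003, 590 and 349 counts in LSK and 0 in the ESC-derived cells (at least 152-fold lower, edgeR adjusted p = 0.0016). Cdkn1c, which encodes p57, a CDK inhibitor required for stem cell quiescence, was at 19.5, 10.9 and 8.97 CPM in LSK and at 6.23, 0.283 and 4.18 CPM in the ESC-derived cells. All ESC-derived libraries were below all LSK libraries, yet the log2 fold change of -1.88 ± 0.96 did not pass (edgeR adjusted p = 0.198).

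Of 16 genes that establish or keep imprints, 14 were tested, 6 were lower (42.9%, beside 15.2% of all tested genes) and 8 did not pass. Without LSK replicate 2 there were 3 lower and 1 higher, beside 8.70% of all tested genes lower and 1559 of 16211 higher. Dnmt1, the maintenance DNA methyltransferase gene, fell from 84.3 ± 8.55 to 42.8 ± 4.24 CPM (log2 fold change -0.98 ± 0.15, edgeR adjusted p = 0.00417). Trim28, the corepressor gene that acts with ZFP57, fell from 134 ± 6.16 to 58.8 ± 18.7 CPM (-1.19 ± 0.23, edgeR adjusted p = 0.00983). Rlim, a ubiquitin ligase gene that acts in imprinted X inactivation, fell from 94.0 ± 3.25 to 36.2 ± 11 CPM (-1.38 ± 0.23, edgeR adjusted p = 0.00563).

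The list of the IGF pathway, on which Igf2, H19 and Grb10 act, had 32 listed genes, of which 21 were tested. Of these 4 were higher (19%, beside 14.8% of all tested genes) and 6 lower (28.6%, beside 15.2%). Leaving out LSK replicate 2 gave 2 higher and 3 lower, beside 1559 of 16211 tested genes higher and 8.70% lower. Igf1r, the receptor gene for both IGFs and the reported target of miR-675, was at 24.6, 21.6 and 18.3 CPM in LSK and at 4.26, 2.76 and 2.11 CPM in the ESC-derived cells. The groups did not overlap, and Igf1r fell by 2.82 on the log2 scale (SE 0.37, edgeR adjusted p = 0.0021). Igfbp4, an IGF binding protein gene, fell from 134 ± 12.8 to 6.75 ± 2.61 CPM (log2 fold change -4.31 ± 0.32, edgeR adjusted p = 0.000198). Foxo3, a transcription factor gene held back by IGF signalling and needed for stem cell upkeep, fell from 39.3 ± 11.1 to 6.38 ± 1.24 CPM (-2.62 ± 0.31, edgeR adjusted p = 0.00142).

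Its relative Foxo1 moved the other way, from 14.9 ± 2.29 to 58.2 ± 20.5 CPM (log2 fold change 1.96 ± 0.29, edgeR adjusted p = 0.00348). Pik3cd, the leukocyte PI3 kinase subunit gene, rose from 22.2 ± 4.45 to 94.6 ± 16.6 CPM (2.09 ± 0.22, edgeR adjusted p = 0.000831). Igf2bp2, an RNA-binding protein gene, rose from 0.679 ± 0.537 to 5.52 ± 1.62 CPM (3.02 ± 0.83, edgeR adjusted p = 0.0329), and its call was lost in 5 alternatives. Igf2r, itself imprinted and the receptor that clears IGF2, was at 3.69 ± 0.759 against 8.03 ± 0.873 CPM and did not pass (1.12 ± 0.40, edgeR adjusted p = 0.079; named after its values were seen). The T cell markers given above moved with these differences, and their part was not tested.

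**Figure D4:**
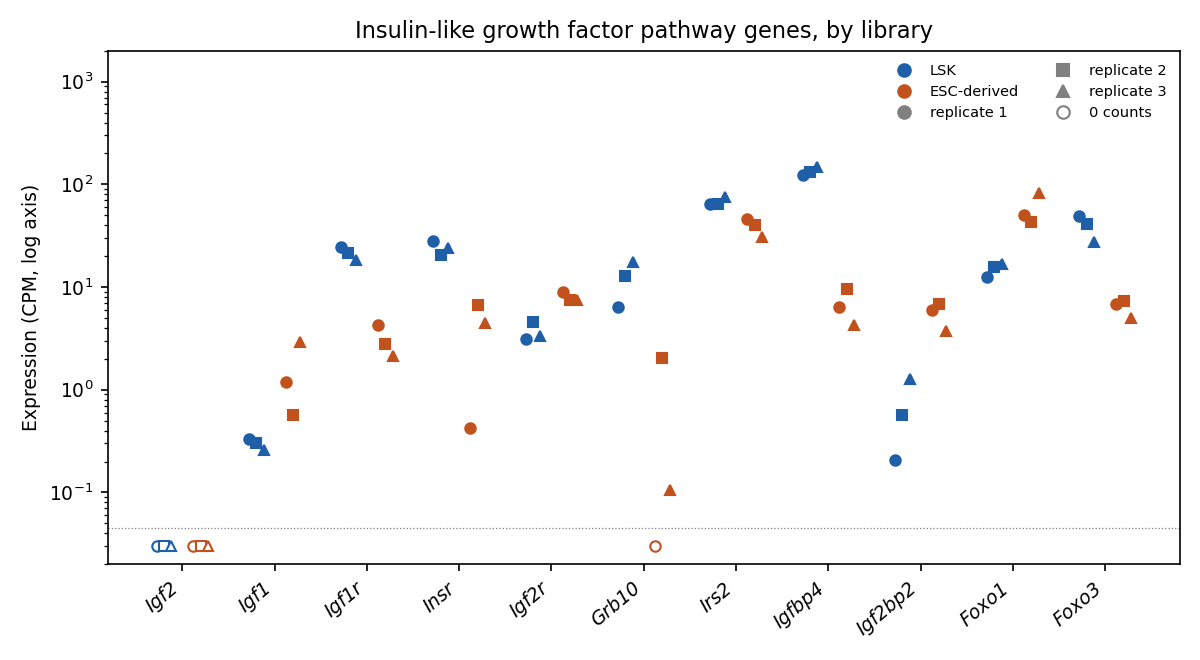
Expression of IGF pathway genes in each library, in CPM on a log axis, with LSK in blue, ESC-derived cells in orange and replicates by marker shape. Igf2 has 0 counts throughout, drawn open below the dotted line, Igf1r, Igfbp4 and Foxo3 are lower in all ESC-derived libraries, and Foxo1 and Igf2bp2 are higher.

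Of 29 genes on the path from the Gnas product to cyclic AMP and its targets, 26 were tested. Among the tested genes 9 were higher (34.6%, beside 14.8% of all tested genes) and 4 lower (15.4%, beside 15.2%). With LSK replicate 2 left out, 5 were higher and 4 lower, beside 1559 of 16211 tested genes higher and 8.70% lower. Pde4b, a cyclic AMP phosphodiesterase gene, fell from 437 ± 16.7 to 64.2 ± 3.24 CPM (log2 fold change -2.77 ± 0.10, edgeR adjusted p = 1.08e-05). Gnb1, the G protein beta subunit gene, rose from 131 ± 12.8 to 256 ± 35.6 CPM (0.96 ± 0.14, edgeR adjusted p = 0.00325). The adenylyl cyclase gene Adcy7 rose from 54.3 ± 10.7 to 118 ± 6.76 CPM (1.12 ± 0.17, edgeR adjusted p = 0.00417). Among the genes of this path that were called, Gnas was thus lower and these latter genes higher.

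Of 25 genes of the cell cycle and quiescence, all tested, 9 were higher (36.0%, beside 14.8% of all tested genes) and 5 lower (20%, beside 15.2%). With LSK replicate 2 left out, 6 were higher and 4 lower, beside 1559 of 16211 tested genes higher and 8.70% lower. Cdkn1a, which encodes the CDK inhibitor p21, fell from 411 ± 13.7 to 40.6 ± 6.17 CPM (log2 fold change -3.34 ± 0.15, edgeR adjusted p = 2.27e-05). Cdk4 and Cdk6, the kinase genes that drive entry into the cycle, fell by 1.27 and 1.14 on the log2 scale. The D-type cyclin genes Ccnd2 and Ccnd3 rose, with log2 fold changes of 1.28 ± 0.09 and 1.56 ± 0.12 (edgeR adjusted p = 0.000128 and 0.000203). Cdkn2b, the p15 inhibitor gene, had 4 counts over the LSK libraries and 3776 in the ESC-derived cells. Mki67, the proliferation antigen gene, did not pass (edgeR adjusted p = 0.493; named after its value was seen).

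Other cell types that express imprinted genes in marrow were checked through their markers. Of 15 tested stromal markers 1 was higher (6.7%, beside 14.8% of all tested genes) and 2 lower (13.3%, beside 15.2%). The summed level of the 24 listed was 206 to 237 CPM in LSK and 278 to 362 in the ESC-derived cells, with 2 and 4 of them at 0. The gene called higher was Thy1, also a T cell gene, at 6.89 to 11 CPM in LSK and 184 to 289 in the ESC-derived cells. Without Thy1, left out after its values were seen, the stromal sum was 199 to 230 CPM in LSK and 68.4 to 115 in the ESC-derived cells, the opposite order. A large part of it came from Runx2, at 78.5 to 104 CPM in LSK and 21.6 to 37 in the ESC-derived cells. Whether either sum reflects stromal cells was not tested. The stromal receptor gene Pdgfrb was at least 298-fold lower in the ESC-derived cells, and the chemokine gene Cxcl12 was at 1.69 ± 1.53 CPM against 0.126 ± 0.218 (edgeR adjusted p = 0.213). Of 13 tested endothelial markers 6 were lower (46.2%, beside 15.2% of all tested genes). The endothelial list summed to 374 to 422 CPM in LSK and 43.2 to 99 in the ESC-derived cells. Cdh5, the gene of CD144, had 0, 0 and 8 counts in LSK and 0 in each ESC-derived library, and was not tested. Esam, called lower, and Robo4, not passed, are also on the stem cell list. Cdh5 and Robo4 were named after their values were seen. Whether this sum reflects endothelial cells was not tested. Erythroid and megakaryocyte markers had 5 lower of 13 tested (38.5%, beside 15.2%), with 460 to 588 CPM in LSK against 107 to 743. The platelet gene Pf4 was at 12.3 ± 1.88 against 1.19 ± 0.348 CPM. The part of these cells in the levels of Dlk1, Ndn, Grb10 and Mest was not tested.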

How the data were processed

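The 6 libraries, 3 LSK and 3 ESC-derived, came from 2000 sorted cells each. Per the labels' protocols, SMART-Seq v4 gave the cDNA, with poly(A) priming and no record of strand, and Nextera XT the libraries. HISAT, StringTie and mm10 appear, without roles, in the submitters' processing notes. No other setting is given in the sources used. The authors deposited estimated counts, whole and unscaled, for each gene ID. Column names, held together in 1 header field, were read in their order. Of values from 1 to 20, 40.1 to 47.2% were divisible by 4, so a fragment was often worth 4 counts. Of 55401 IDs, 55141 matched GENCODE M21.

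After filterByExpr and TMM scaling, ESC-derived was compared with LSK by the quasi-likelihood test of edgeR 4.0.16 in R 4.3.3 (robust, two-sided, Benjamini-Hochberg threshold 0.05, no replicate block). The counts were already whole, so rounding changed nothing. Each SE was derived from the F statistic. A gene at 0 in a group has a bound against 12 counts over that group. Alternatives numbered 16, among them DESeq2 1.42.0, limma-voom 3.58.1, other scalings and filters, and leaving out each library. The fitting steps were tested on simulated data.

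The members, the 11 lists and the rules were chosen with earlier results of these data known. The named genes are the 10 members, up to 3 higher and 3 lower genes per list by adjusted p, 5 defining marker genes and the genes that overlap members. Not every gene so named is given values in the text; others are said to be chosen after their values were seen.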

Additional observations from a re-analysis of the deposited data

How the results depend on the processing

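Ndn and Gnas kept their direction and their call in all 16 alternatives. With counts divided by 4, Dlk1 was not tested, and the members called lower were Ndn, Gnas and Grb10. The set had 2 to 4 members called lower and 0 higher by edgeR, DESeq2 and limma-voom: 2 with the replicate block and with a filter of 50 counts in 3 libraries, and 4 with DESeq2, with limma-voom and without ESC-derived replicate 2. Meg3 turned from -0.21 to 0.16 without LSK replicate 1, and ranged from -0.49 to 0.16 as each library was left out. Leaving out each library, genes called higher numbered 1559 to 2254 (2395 with all libraries) and genes called lower 1411 to 2636 (2466), the fewest without LSK replicate 2. With library totals only, the median of all genes shifted by -0.25 on the log2 scale and 36.5% of calls were higher, against 49.3%; Gnas passed there too, at -1.81.

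The deviations of same-numbered libraries correlated at 0.027, 0.003 and 0.037, and those of other pairs at -0.042 to 0.03. No pairing by number was seen, but values from so few libraries cannot settle whether the numbers pair the samples. With the replicate block, genes called lower numbered 1488, and Dlk1 (-8.86, adjusted p = 0.0847) was the one member whose call was lost. The other imprinted genes had 0 to 6 called higher over the alternatives. The causes of these shifts were not tested.

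Igf2 and H19 had 0 counts and Peg3 at most 20 per library, so none of the 3 was tested. Differences at or below such levels could not be detected at this depth.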

Other observations

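Dppa3, an oocyte factor gene that protects imprints from demethylation in the zygote, varied widely within LSK. It had 0, 1460 and 4 counts in LSK replicates 1, 2 and 3, so replicate 2 held 99.7% of them, and 2572, 3971 and 1102 in the ESC-derived cells. The groups overlapped and the gene did not pass (edgeR adjusted p = 0.405). Its value is uncertain, since the mouse genome holds processed copies of Dppa3.

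Rasgrf1, a paternally expressed exchange factor gene, had 4, 12 and 0 counts in LSK and 293, 138 and 20 in the ESC-derived cells, with no overlap and no pass (log2 fold change 4.92 ± 1.66, edgeR adjusted p = 0.0665). Peg13, a paternally expressed noncoding RNA, was at 51, 48.6 and 51.4 CPM in LSK and at 9.63, 11.9 and 0.634 CPM in the ESC-derived cells (-2.77 ± 0.89, edgeR adjusted p = 0.0559). These genes were chosen after their values were seen. Of the 66 other imprinted genes, 7 had more than 12 counts over the LSK libraries and 0 in the ESC-derived cells. In the opposite order there was 1, Ascl2, with 74 counts, all from ESC-derived replicate 1. Over all 55401 gene IDs these tallies were 1598 and 1373, or 6.14% and 5.28% of the IDs with any counts. Of the 66 genes, 8 had no counts in any library.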
